A study of Homo sapiens with 4 samples.

Results

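The genes described here encode RAB GTPases and proteins that switch them on or off. They were chosen by name alone from a table of 10147 expressed genes, which held 37 RAB and RABL genes, 19 TBC1D genes, RABGEF1 and RAB3GAP1, or 58 genes in all. RAB3GAP2 also matched the naming rule and was not analysed here. The RNA came from K562 cells, a human chronic myelogenous leukemia line, edited so that IWS1 carries an N-terminal degradation tag (dTAG) in every sample. IWS1 is a transcription elongation factor of RNA polymerase II. The 2 control samples received DMSO for 1 h and the 2 dIWS1 samples received 500 nM of the ligand dTAG7 for 1 h, and the question is how loss of IWS1 changes RNA synthesis. TT-seq, which sequences RNA labelled with 4-thiouridine (4sU) during a short pulse, was done with 500 µM 4sU for 5 min. Controls and dIWS1 samples share the tag and the parental line, and per the study's methods the samples of a group were biological replicates from separately grown stocks. Whether they came from 1 edited clone is not stated for these samples.

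RAB proteins are small GTPases that sit on the membranes of the secretory and endocytic pathways and recruit effectors that move, tether and fuse vesicles. Guanine nucleotide exchange factors (GEFs), such as the RABGEF1 product, load them with GTP. GTPase-activating proteins (GAPs) end the active state, and most of them carry a TBC domain, which gives the TBC1D genes their name. A RAB binds the phosphates of GTP through a glycine-rich loop (P-loop) that ends in lysine and serine or threonine, and a TBC GAP inserts a catalytic arginine into the RAB's active site.

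The coding sequence of these motifs is shown for the genes at the ends of the range and for selected related genes. The selection holds related genes that differed in their change, and also RABL2A and RABL2B, which hardly differed. The motifs were read from GENCODE v44 coding sequences on GRCh38, and the capitals mark the lysine and serine or threonine codons of the P-loop.
RAB24: ggcaaggagtacgtgggcAAGACT
RAB5A: ggagagtccgctgttggcAAATCA
RAB5B: ggagaatctgcagtgggaAAGTCA
RAB5C: ggggagtctgcggtaggcAAATCC
RAB22A: ggggatacaggtgtaggtAAATCG
RAB31: ggggacactggggttgggAAATCA
RABL2A: ggagacagcgcagtgggcAAATCC
RABL2B: ggagacagcgcagtgggcAAATCC
For the TBC1D genes the capitals mark the codon of the catalytic arginine.
TBC1D22A: atccacatagacatccctCGC
TBC1D22B: attcacattgacattccaAGG
TBC1D10A: attgagcgtgacctgcacCGG
TBC1D10B: attgagaaggacctgcacCGC
The P-loop pattern was found once in 36 of 37 RAB and RABL genes and was not found in RAB40C. The arginine pattern was found in 11 of 19 TBC1D genes. Absence of a match says only that these letters are not there. RAB22A and RAB31 differed at 6 of the motif's bases and were identical at 71.5% of 575 aligned coding bases. RABL2A and RABL2B did not differ in the motif and were identical at 99.3% of 687 aligned coding bases. The authors kept only unique alignments, so reads that match these genes equally were not counted, and the separate values of the genes are uncertain. The RAB coding sequences ran from 194 to 340 codons, with a median of 215, and those of the TBC1D genes from 400 to 1298, with a median of 693.

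The deposited table held no value per library. Its means and fold changes fit only 3 sets of whole reads per gene, 1 control column that entered the mean 2 times and 2 different dIWS1 columns. The control column was therefore counted as 1 sample, n = 1 control against n = 2 dIWS1. The spread comes from the dIWS1 columns alone, moderated over all genes, with the control assumed to vary like them. The 3 columns held 29832118 reads in genes for the control, 20684301 for dIWS1 column 1 and 20886697 for column 2. Reads were divided by spike-in size factors between 0.919 and 1.01. Relative to the control, the median log2 ratio over genes with a mean of at least 100 was -0.47 in column 1 and -0.36 in column 2. All 8 erythroid and progenitor markers of K562 that were looked up were listed, with 295 (KLF1) to 16164 (TFRC) control reads, and none of the 4 markers of T cells, B cells, liver and epithelium was listed. The IWS1 transcript itself had 3684 control reads and 2334 and 2427 dIWS1 reads, a log2 change of -0.55 ± 0.15 (SE, limma voom adjusted p = 0.00078). The ligand removes the protein, so the transcript does not measure its loss. Per the study's methods, a set number of cells was treated for each replicate and the spike-ins were added to the lysates. The number of cells at lysis is not stated, so fewer cells and less RNA per cell were not told apart here.

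After IWS1 degradation, 40 of the 58 genes gave less newly made RNA and none gave more, at an adjusted p under 0.05 (limma voom over all 10136 genes with reads). No member had a higher value at an unadjusted p under 0.05 either, and limma trend also called 0 higher. Over all genes, 64.5% were called lower and 0.109% higher, so the share among these genes, 69.0%, lies near the background. The fitted log2 change was below 0 in 58 of 58 genes and the ratio was below 0 in both dIWS1 columns in 57. RAB5A was the exception, with 0.01 in column 2. Over all 10136 genes the same counts were 9772 and 9339. The median change of the 58 genes was -0.38, against -0.43 over all genes tested. Among the RAB and RABL genes 22 of 37 fell, with a median of -0.37. Of the TBC1D genes 16 of 19 fell, with a median of -0.42. RABGEF1 and RAB3GAP1 both fell.

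**Figure D1:**
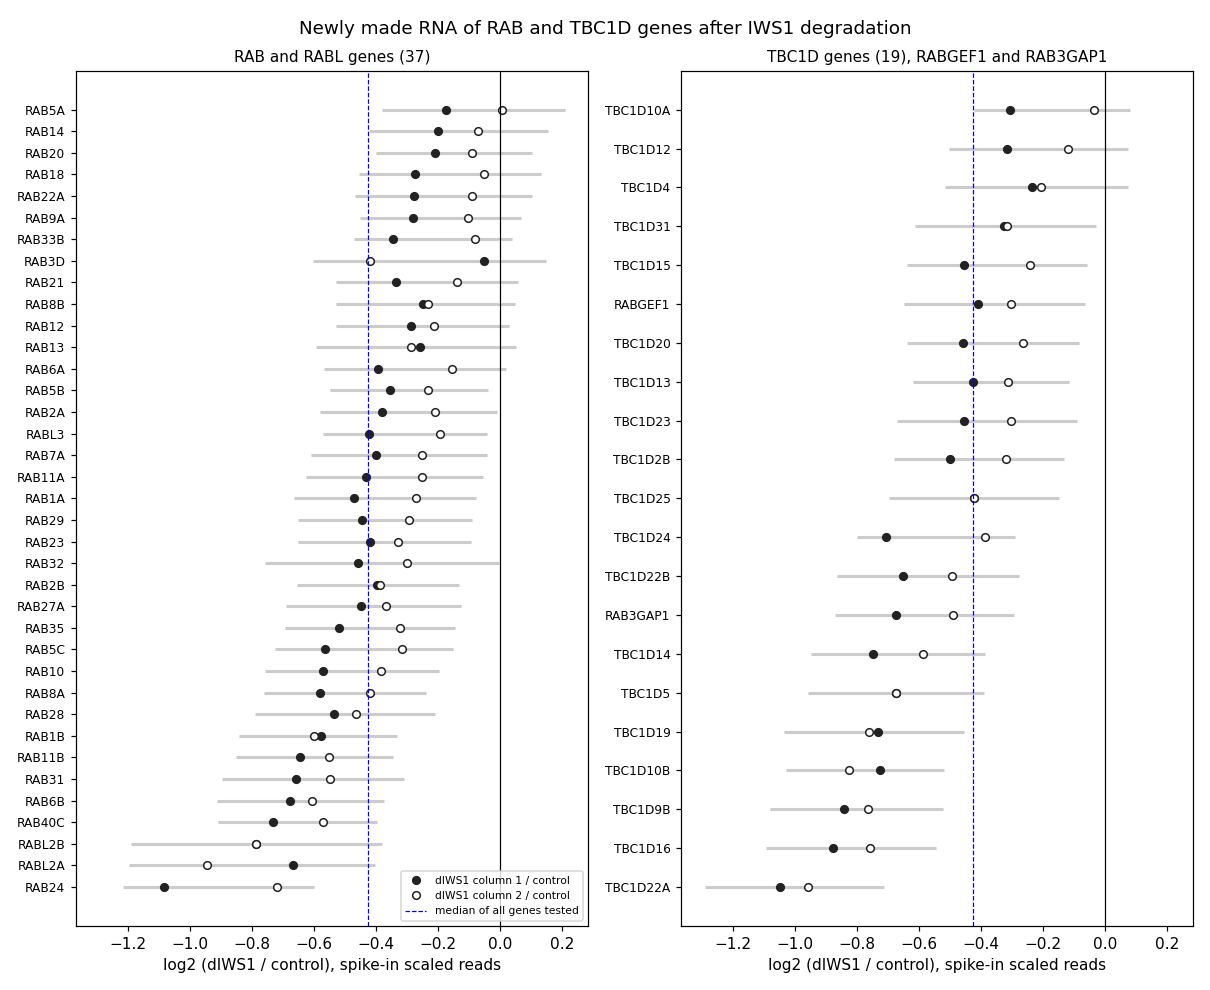
Log2 ratio of spike-in scaled reads (x axis) for each of the 58 genes (y axis), with filled circles for dIWS1 column 1, open circles for column 2 and grey lines for the 95% interval of the fitted change. The blue dashed line is the median of all genes tested, -0.43, and the black line is 0. Nearly all circles lie to the left of 0, like the dashed line, from TBC1D22A at -1.0 to RAB5A at -0.08. With each column scaled to the median of genes with a mean of at least 100, 34 of the 58 genes lie above that median. Of all 10136 genes 4868 do.

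Because most genes were lower, the same reads were also scaled so that the median gene of each dIWS1 column did not change. On this scale 5.84% of all genes were called lower and 3.74% higher. The median of the RAB and RABL genes was then 0.04 and that of the TBC1D genes -0.01, so the lower medians given above are those of nearly all genes, and the RAB median changes sign with the scaling. Above the median gene, taken among genes with a mean of at least 100, lay 24 of 37 RAB and RABL genes and 9 of 19 TBC1D genes. Of all 10136 genes tested 4868 lay above it. TBC1D22A at -0.59, TBC1D16 at -0.41, TBC1D9B at -0.39 and TBC1D14 at -0.26 were called lower. RAB5A at 0.33 and RAB14 at 0.28 were called higher. These calls rest on small residual spreads and change with the settings: with a minimum mean of 10 they were 12 lower and 8 higher, and with limma trend 0 passed, while 11 lower and 9 higher members had an unadjusted p under 0.05. With 1 shift for both dIWS1 columns RAB24, TBC1D16 and TBC1D22A were lower and 0 higher. The 4 and 2 calls are 6.9% and 3.45% of the 58 genes, near the background.

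Among the RABs of early and recycling endosomes, 6 of 11 fell, against 64.5% of all genes. The group's middle value was -0.29, which is 0.12 on the scale of the median gene. RAB5A, which drives fusion of early endosomes, had 4928 reads in the control and 4294 and 4509 in the dIWS1 columns. Its dIWS1 values lay just under the control after scaling in column 1 and level with it in column 2, and the log2 change was -0.08 ± 0.15 (adjusted p = 0.61). RAB5B went from 813 to 626 and 630 reads (-0.29 ± 0.13, adjusted p = 0.039). RAB5C went from 2709 to 1802 and 1984 reads (-0.44 ± 0.15, adjusted p = 0.0065). From the least to the most lowered the order was RAB5A, RAB5B, RAB5C, and neighbours in this order were apart by 0.21 (0.18 in column 1 and 0.24 in column 2) and 0.15 (0.21 and 0.08), differences that were given no test. RAB14, which acts between the Golgi and endosomes, had 2561, 2196 and 2221 reads (-0.13 ± 0.15). RAB20 at -0.15, RAB22A at -0.18 and RAB21 at -0.24, all endosomal RABs, also did not pass the test. Lower in both columns were RAB31, a close relative of RAB22A, with 4835, 3015 and 3011 reads (-0.60 ± 0.15, adjusted p = 0.00026), and RAB11B, which serves the recycling endosome, with 835, 525 and 519 reads (-0.60 ± 0.13, adjusted p = 2.93e-05). RAB11A fell by 0.34 and RAB35, a RAB of endocytic recycling, by 0.42 on the log2 scale.

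Of the early secretory RABs 4 of 8 fell, against 64.5% of all genes, with a median of -0.33, or 0.08 relative to the median gene. RAB1A and RAB1B control transport from the endoplasmic reticulum to the Golgi. RAB1A had 3626 control reads and 2576 and 2736 dIWS1 reads (-0.37 ± 0.15, adjusted p = 0.024). RAB1B, which spans only 8.85 kb, had 845, 557 and 508 reads (-0.59 ± 0.13, adjusted p = 4.07e-05). RAB6B had 1492, 917 and 892 reads, a change of -0.64 ± 0.14 (adjusted p = 2.24e-05), whereas its partner RAB6A, the main Golgi RAB6, had 5204, 3901 and 4255 reads and did not pass (-0.27 ± 0.15, adjusted p = 0.094). RAB2B fell by 0.39 on the log2 scale, and RAB2A had -0.29 ± 0.15 (adjusted p = 0.065). RAB18, a RAB of the endoplasmic reticulum and lipid droplets, and RAB33B, which links the Golgi to autophagy, did not pass, at -0.16 and -0.22.

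The RABs of late endosomes, lysosomes and autophagy included the RAB gene with the largest decrease. RAB24, an atypical RAB of autophagy on GRCh38 chr5:177301198-177303719, had 257 control reads and 119 and 142 dIWS1 reads. Both dIWS1 columns were under the control but apart from each other, at -1.08 in column 1 and -0.72 in column 2. The fitted change was -0.91 ± 0.16 (adjusted p = 1.71e-07), or -0.49 relative to the median gene. At 2.52 kb RAB24 was also the shortest of the 58 genes. RAB7A, the GTPase of late endosomes and lysosomes, had 12882, 9601 and 9860 reads (-0.33 ± 0.15, adjusted p = 0.04), and RAB29, a partner of the kinase LRRK2, fell by 0.37. RAB9A, which returns cargo from late endosomes to the Golgi, had -0.19 and RAB12 -0.25, neither past the test. RAB32, with 123 control reads, had -0.38 ± 0.19 (adjusted p = 0.07). In all 3 of 6 fell, against 64.5% of all genes, with a median of -0.35, or 0.06 relative to the median gene.

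Of the RABs of exocytosis and polarised transport 3 of 6 fell, against 64.5% of all genes. The middle value of these RABs was -0.34 with spike-in scaling and 0.07 once centred on the median gene. RAB10, which carries cargo to the plasma membrane, had the highest level of the 58 genes per length, 173 scaled control reads per kb of gene, and went from 18246 to 12096 and 12737 reads (-0.48 ± 0.14, adjusted p = 0.0022). RAB27A, which tethers secretory granules, had 14657, 10579 and 10347 reads (-0.41 ± 0.14, adjusted p = 0.0099). RAB8A had 1133, 745 and 772 reads (-0.50 ± 0.13, adjusted p = 0.00067). RAB8B at -0.24, RAB13 at -0.27 and RAB3D at -0.23 did not pass. RAB3D had the lowest level per length, 6.7 per kb, and its columns were far apart, with 119, 113 and 81 reads.

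All 6 RABs of cilia, ubiquitin ligases and less studied roles fell, against 64.5% of all genes. Their middle value was -0.58 with spike-in scaling and -0.16 once centred on the median gene. With the centred scaling 0 of the 6 were called lower and 0 higher. RABL2A had 123, 76 and 58 reads and RABL2B 116, 66 and 61. The fitted changes were -0.80 ± 0.20 and -0.79 ± 0.21, from unique alignments only. These values are uncertain because the genes are near-identical. RAB40C, whose product carries a SOCS box that recruits a ubiquitin ligase, had 891, 527 and 546 reads (-0.65 ± 0.13, adjusted p = 5.76e-06). RAB28, a cilium-associated RAB, fell by 0.50, RAB23, a negative regulator of Hedgehog signalling, by 0.37 and RABL3 by 0.31. The whole RAB range thus ran from RAB24 to RAB5A, and 7 of 37 RAB and RABL genes lay among the 20% of all genes with the least decrease, against 4 among the 20% with the largest decrease.

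The TBC1D genes held the largest decrease of the 58. TBC1D22A, a Golgi-associated TBC protein on chr22:46762650-47175699, had 10722 control reads and 5097 and 5029 dIWS1 reads. Both dIWS1 columns held about the same, much lower number, and the change was -1.0 ± 0.15, a fold of 0.499 (adjusted p = 5.36e-10). TBC1D16, a GAP for RAB4A, had 1787, 956 and 961 reads (-0.82 ± 0.14, adjusted p = 1.17e-07). TBC1D9B, a GAP for RAB11A, had 2053, 1126 and 1101 reads (-0.80 ± 0.14, adjusted p = 3.09e-07). TBC1D10B, a GAP for RAB35 and RAB27A, had 676, 402 and 347 reads (-0.78 ± 0.13, adjusted p = 6.78e-08). In these 4 genes both dIWS1 columns were far below the control and lay close to each other. TBC1D19 fell by 0.75. TBC1D5, which binds retromer and inactivates RAB7, spans 585 kb, the most of the 58 genes, and had 13573, 8373 and 7742 reads (-0.67 ± 0.15). TBC1D14, which binds RAB11 and restrains autophagosome formation, had 18525, 10840 and 11235 reads (-0.67 ± 0.14, adjusted p = 2.12e-05).

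In 3 TBC1D genes the test was not passed. TBC1D10A, the close relative of TBC1D10B, had 573, 456 and 509 reads (-0.17 ± 0.13, adjusted p = 0.22). TBC1D12, related to TBC1D14, had 2574, 2035 and 2160 reads (-0.22 ± 0.15). TBC1D4 (AS160), the GAP that holds back insulin-driven transport of the glucose transporter GLUT4, had 3582, 2990 and 2830 reads (-0.22 ± 0.15). The remaining TBC1D genes fell by between 0.32 (TBC1D31, a centriolar satellite protein) and 0.57 (TBC1D22B). They included TBC1D20, a GAP for RAB1 at the endoplasmic reticulum, with 1743, 1248 and 1320 reads (-0.36 ± 0.14), and TBC1D15, a GAP for RAB7, with 8359, 5999 and 6438 reads (-0.35 ± 0.15). TBC1D1 and TBC1D7 were not analysed here. By role, 6 of 7 endosomal and autophagy TBC1D genes, 3 of 5 of the plasma membrane and exocytosis, 4 of 4 of the early secretory pathway and Golgi and 3 of 3 others fell, with medians relative to the median gene of -0.01, 0.04, -0.06 and -0.33. Over all genes 64.5% were called lower. Of the 19 TBC1D genes 7 lay among the 20% of all genes with the largest decrease and 3 among the 20% with the least.

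Of the regulators outside the TBC1D family, RABGEF1 (Rabex-5), the exchange factor of RAB5, had 7394, 5480 and 5461 reads (-0.36 ± 0.15, adjusted p = 0.029). RAB3GAP1, the catalytic subunit of the RAB3 GAP, had 10335, 6372 and 6700 reads (-0.58 ± 0.15, adjusted p = 0.00031).

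**Figure D2:**
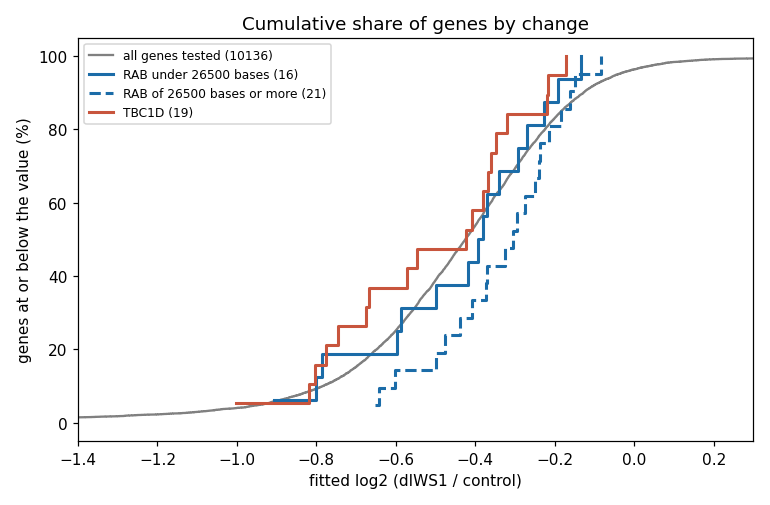
Cumulative share of genes (y axis, percent) at or below each fitted log2 change (x axis) for all genes tested (grey), RAB and RABL genes under 26500 bases (blue, solid) or longer (blue, dashed), and TBC1D genes (red). The longer RAB genes lie to the right of the other curves, with a median of -0.31 against -0.39 for the short RAB and -0.42 for the TBC1D genes; scaled to the median gene these become 0.10, 0.03 and -0.01.

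Short RAB genes, defined as spanning less than 26500 bases in RefSeq, were then set beside the TBC1D genes. The 16 short RAB and RABL genes had a median span of 16.9 kb and the 19 TBC1D genes one of 82.7 kb. Of the short RAB genes 11 fell, or 68.8%, against 59.2% of all shortest and 64.0% of all short genes. Of the TBC1D genes 84.2% fell, against 78.2% of all longest genes, the class of 11 of the 19, so both shares lie near their background. Their median changes were -0.39 and -0.42, so that the short RAB genes were higher by 0.04, or 0.05 in column 1 and 0.03 in column 2. With a bound of 10 kb, which leaves 4 RAB genes, the difference turned to -0.06. The 21 longer RAB and RABL genes had a median of -0.31. Lower calls were made in 11 of them, or 52.4%, against 57.4% of all long and 78.2% of all longest genes. Among genes of 26500 bases or more, the RAB median lay above that of the 16 TBC1D genes by 0.17, with 0.17 and 0.12 in the columns. These differences are descriptions of the members and were given no test.

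Over all genes the median change by length class was -0.49 for the shortest genes (under 10 kb), -0.39 for short ones, -0.35 for long ones (from 26500 bases to 65 kb) and -0.49 for the longest. The 4 shortest RAB genes had a median of -0.48, the 12 short ones -0.39, the 12 long ones -0.24 and the 9 longest -0.41. The TBC1D medians were -0.42 in 3 short, -0.38 in 5 long and -0.57 in 11 longest genes. Long RAB genes thus lay above all genes of their class by 0.10 and the longest TBC1D genes below theirs by 0.08. Across genes, Spearman's rho between span and change was 0.15 in the 37 RAB and RABL genes, -0.15 in the 19 TBC1D genes and 0.0008 in all genes with a span. The genes share the same 3 columns, and span went with read depth (rho 0.80 in the RAB and RABL genes).

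**Figure D3:**
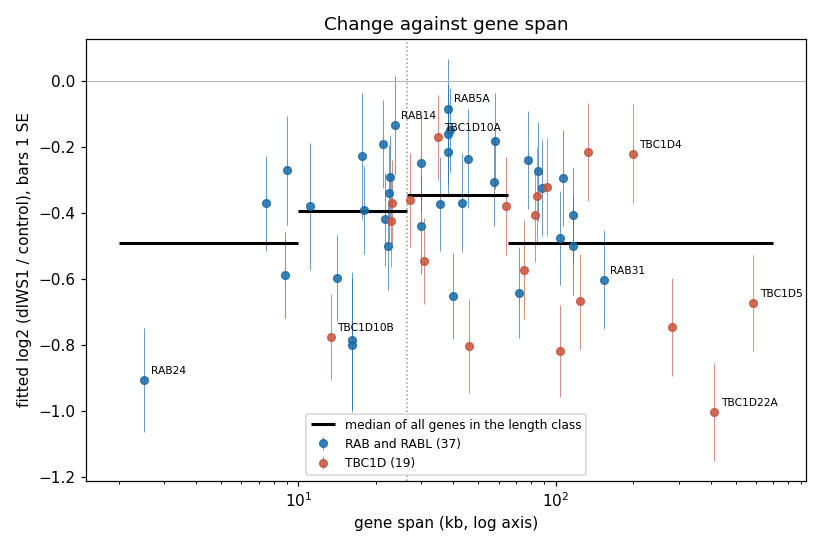
Fitted log2 change (y axis, bars 1 SE) against gene span in kb (x axis, log scale) for 37 RAB and RABL genes (blue) and 19 TBC1D genes (red); black lines are medians of all genes in each length class and the dotted line is 26500 bases. Members of like span differed widely, for example TBC1D16 at -0.82 over 104 kb and RAB2A at -0.29 over 107 kb.

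Pairs of related genes, 13 in all, were compared within each library, so that scaling does not enter the difference. Both columns are set against the same control column, so an equal sign in both is no independent repeat and the differences are descriptions. TBC1D10A lay above TBC1D10B by 0.60 (0.42 in column 1 and 0.79 in column 2) and TBC1D12 above TBC1D14 by 0.45 (0.43 and 0.47). TBC1D22A lay below TBC1D22B by 0.43 (0.40 and 0.46). RAB22A lay above RAB31 by 0.42 (0.38 and 0.46), RAB6A above RAB6B by 0.37 (0.29 and 0.45) and RAB5A above RAB5C by 0.35 (0.39 and 0.32). RAB11A lay above RAB11B by 0.26, RAB1A above RAB1B by 0.22 and RAB8B above RAB8A by 0.26. RAB2A and RAB2B differed by 0.10, and the difference of RABL2A and RABL2B changed sign between the columns. In 10 of the 13 pairs the longer gene was the less lowered one, counting RABL2A and RABL2B, whose spans are nearly equal. The longer gene was the more lowered one in RAB31 against RAB22A, TBC1D22A against TBC1D22B and RAB5C against RAB5B.

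**Figure D4:**
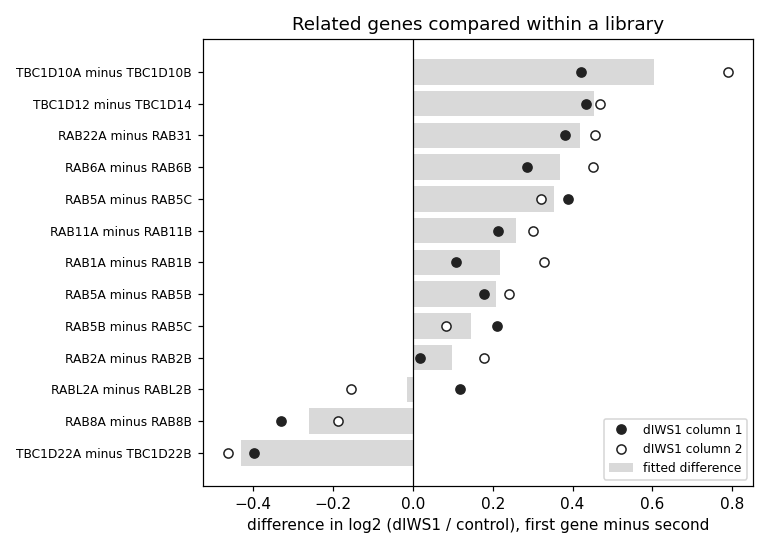
Difference in log2 ratio (x axis, first gene minus second) for 13 related gene pairs (y axis), with bars for the fitted difference and circles for dIWS1 column 1 (filled) and column 2 (open). The pair TBC1D10A and TBC1D10B shows the widest gap, 0.60, and RABL2A and RABL2B lie on either side of 0.

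Other genes of the RAB cycle were counted from name lists, and relative to the median gene the medians of the 4 lists given here were between -0.13 and -0.07. Their counts stand beside the 64.5% of all genes that were called lower. All 5 listed TBC-domain GAPs without a TBC1D name fell (median -0.49), from TBCK at -0.74 to GRTP1 at -0.40. Of the RAB GEFs 16 of 19 fell (median -0.49). HPS4, a subunit of the GEF for RAB32 and RAB38, had 1625, 848 and 816 reads and -0.89 ± 0.14, and MON1A, a subunit of the RAB7 GEF, had 318, 265 and 305 reads and -0.09 ± 0.14. In the TRAPP complex, a GEF for RAB1 and RAB11, 10 of 13 subunit genes fell (median -0.55). TRAPPC9 had -0.93 ± 0.14 and TRAPPC6B 0.03 ± 0.13, with 910, 888 and 868 reads. GDI2, whose product extracts RABs from membranes, had -0.18 ± 0.15 and did not pass the test. Of the effectors 21 of 27 fell (median -0.48), with RILP, a RAB7 effector, at -1.09 ± 0.20 and OPTN, a RAB8 effector, at -0.08 ± 0.13.

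The promoters of the members were compared as sequence only, in RefSeq windows of 250 bases before an annotated start of the gene on GRCh38.p14. Full windows were found for 32 RAB and RABL genes and 16 TBC1D genes. A GC box (GGGCGG, or CCGCCC on the other strand) was in 29 of the 32 RAB windows, 90.6%, and in 12 of the 16 TBC1D windows, 75%, against 68.8% of the 8021 windows of genes in the table and 42.3% of all 27305. TATAAA (or TTTATA) was in no RAB window and 1 TBC1D window, against 5.12% of genes in the table. CCAAT (or ATTGG) was in 25% of both groups and 36.1% of genes in the table. The last 100 bases before the start are shown for the least and most lowered RAB genes, with the GC box in capitals, of which each has 1. The same stretch held 2 in TBC1D10A, the least lowered TBC1D gene. For TBC1D22A, the most lowered, the stretch (chr22:46763642-46763741) lies inside the gene span given above. It held 0, which cannot be set beside the stretches that end at the gene's start.
RAB5A, chr3:19946997-19947096, plus strand: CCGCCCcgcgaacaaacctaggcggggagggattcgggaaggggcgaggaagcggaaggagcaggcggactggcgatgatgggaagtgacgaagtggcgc
RAB24, chr5:177303720-177303819, minus strand: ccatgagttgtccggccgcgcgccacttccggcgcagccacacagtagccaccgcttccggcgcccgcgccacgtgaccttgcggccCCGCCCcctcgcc
Which start sites were used in these cells was not measured.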

How the data were processed

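The authors aligned the TT-seq reads with STAR 2.6.0 to GRCh38 with spike-in sequences, kept unique alignments, counted fragments per RefSeq gene by strand, removed overlapping genes, kept expressed genes and fitted DESeq2 (version not given in the sources used here) with spike-in size factors. Their deposited table gives a signal per gene (the mean of counts divided by size factors), a log2 fold change of dIWS1 over control, its standard error, test statistic and p-values. The deposited log2 fold change was used only to split each mean into whole reads and to tell the numerator columns. Its direction is not named in the table and was read as dIWS1 over control from the study's text. The standard error, statistic and p-values were not used, and none of the authors' comparison values is printed here. Low means differed in 3 steps, and all 10136 genes with a mean above 0 split into 1 set of whole reads (relative tolerance 2e-14). From the mean alone, 51 of the 58 members had 1 set.

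Reads were tested with limma 3.58.1 in R 4.3.3, by voom over all genes with the spike-in size factors as library sizes. The planned count test was not run, since the table holds no counts, and the lone control was assumed to vary like the dIWS1 columns. The p-values were adjusted by Benjamini-Hochberg and called under 0.05. They measure only the spread between the dIWS1 columns, moderated by limma over all genes. In the spike-in fit the SE says little about a gene's own spread. TBC1D5, at -0.67 in column 1 and column 2, and RAB5A, at -0.18 and 0.01, each had an SE of 0.15. The script was tested on simulated reads with the same spread in every column and no shift between columns. That test does not check the spread assumed for the control. Single-column ratios used a pseudocount of 0.5. A second fit scaled each dIWS1 column to the median gene (mean of at least 100). A column shift shared by all genes enters every standard error of the spike-in fit.

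Gene spans come from a RefSeq gene annotation, which need not be the RefSeq version that the authors used, and all 58 members were matched. GENCODE release 44 gave only the coding sequences. Of the names, RAB and TBC1D genes with a mean of at least 100 and the 6 or 4 lowest and highest changes were named, with a list of well-known genes, related pairs and the ends of the other lists, and further members were named after their values were seen. Members and lists were chosen with earlier results of these data known. Alternatives were other scalings, filters, pseudocounts, thresholds, length bounds and leaving out a dIWS1 column. One list of RAB prenylation and escort genes is not reported here, apart from single genes.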

Additional observations from a re-analysis of the deposited data

How the results depend on the processing

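The count of 40 lower genes stayed within 28 to 46 under the filters, pseudocounts, thresholds and the control column entered 2 times, with 0 higher under each. Scaling decides it: centred on the median gene 4 were lower and 2 higher, and with total reads in genes 6 and 8. Over all 10136 genes, scaling by total reads gave 1062 lower and 1471 higher. Relative to the median gene, the 4 lower and 2 higher genes became 12 and 8 with a minimum mean of 10, 12 and 7 with 100, 0 and 0 with limma trend at either pseudocount (0.5 or 1), 0 and 0 at an adjusted p under 0.01, 11 and 5 under 0.1, and 16 and 15 with the control column entered 2 times. With 1 shift for both dIWS1 columns, chosen after seeing the data, they were 3 and 0. Over all genes, limma trend called 0 relative to the median gene, against 592 lower and 379 higher with voom, 1618 and 1463 with a minimum mean of 10, 1537 and 1437 with 100, and 2812 and 2579 with the control column entered 2 times. Why the filter moves these counts was not tested.

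The medians of the RAB, short RAB and TBC1D genes became 0.043, 0.027 and -0.012 when centred and 0.073, 0.057 and 0.018 with total reads. Leaving out 1 dIWS1 column gave -0.42 to -0.29, -0.45 to -0.36 and -0.50 to -0.39. With a bound of 10 kb the short RAB median was -0.48. Short RAB minus TBC1D, 0.04, was -0.056 with 10 kb, 0.069 with 65 kb, 0.054 with all RAB genes, 0.17 for genes of 26500 bases or more and 0.03 to 0.05 without a column, so its sign depends on the bound. Leaving out RABL2A and RABL2B changed no median by more than the distance between columns; the last 2 choices were made after seeing the data. No paired analysis was possible because the recovered columns carry no replicate numbers and the control column is a single one.

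Of the 51 named genes, all kept their direction without either column except RAB5A, whose ratio was 0.01 in column 2, and TRAPPC6B and MON1A. With limma trend 7 lost their call: TBC1D31, RAB5B, RAB7A, RAB11A, RAB27A, RABGEF1 and TBC1D15. Among genes called with spike-in scaling or with the other scaling, those that went from below to above 0 when centred on the median gene were RAB5A 0.33, RAB14 0.28, RAB5B 0.12, TBC1D31 0.091, RAB7A 0.086, RAB11A 0.071, RABGEF1 0.057, TBC1D15 0.064, TBC1D20 0.050, RAB1A 0.041, RAB2B 0.020, GRTP1 0.016, RAB27A 0.0048 and OPTN 0.33. With total reads in genes they were RAB5A 0.36, RAB14 0.31, RAB18 0.28, RAB22A 0.26, RAB9A 0.25, TBC1D12 0.23, TBC1D4 0.22, RAB5B 0.15, TBC1D31 0.12, RAB7A 0.12, RAB11A 0.10, RABGEF1 0.087, TBC1D15 0.094, TBC1D20 0.080, RAB1A 0.072, RAB2B 0.049, GRTP1 0.046, RAB27A 0.035, RAB5C 0.0028, GDI2 0.26 and OPTN 0.36. TRAPPC6B, whose fitted change was above 0 with all 3 scalings, was called higher at 0.44 and 0.47. Depth limits the genes with few reads: 5 of the 58 had under 200 control reads, and none had a column under 10 reads.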
